A study of Rattus norvegicus with 44 samples.

Results

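The genes of the Wnt pathway described here are 41 of the 12749 genes that the arrays measured with a probe set of that gene alone. They were chosen by symbol: the Wnt ligands, the frizzled receptors, Lrp5 and Lrp6, the secreted inhibitors of the Sfrp, Frzb, Dkk and Wif1 kinds, the agonist family Rspo, the cytoplasmic genes Dvl, Axin1, Axin2, Apc, Gsk3b and Ctnnb1, and the nuclear factors of the Tcf7 and Lef1 kind. The choice gave 12 ligands, 9 receptors, 8 secreted inhibitors, 1 agonist, 8 cytoplasmic genes and 3 nuclear factors. Messenger RNA was measured on 44 Affymetrix arrays in cultures of 5 clonal rat neural precursor lines. By their labels, Ctx8 and L2.3 are multipotential, Ge2 is nonneuronal, Ge6 is a GABAergic neuronal precursor and L2.2 an interneuronal precursor. At day 0 all clones divided in the presence of FGF2, a factor that keeps neural precursors cycling, and were then held for 3 or 7 days in B27 medium with a low level of fetal bovine serum and no FGF2. No genotype, transgene or drug is named in the labels, and the culture medium changed in its serum as well as in FGF2 between day 0 and the later days, so the 2 cannot be told apart. Each of the 15 groups of clone and day had 3 sister cultures, and L2.2 at day 0 had 2. Every group is cultures of a single clone, so the p-values measure the spread between cultures, and a difference between clones is one between single clones.

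Wnt proteins are secreted, lipid-bearing signals that bind frizzled receptors together with the co-receptors Lrp5 and Lrp6. Without the signal, a complex built on Axin and Apc lets the kinase Gsk3b mark beta-catenin, the product of Ctnnb1, for destruction. With it, Dishevelled proteins hold that complex back and beta-catenin enters the nucleus, where it joins the DNA-binding factors Tcf7, Tcf7l1, Tcf7l2 and Lef1. Tcf7l1 is best known as a repressor and Lef1 as an activator, and Axin2 is a widely used target gene that feeds back on the pathway. Secreted Sfrp and Frzb proteins bind Wnt ligands outside the cell, and Wnt signals are known in the forebrain for patterning and for controlling how long precursors divide.

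The results turn on the nuclear factors and on Axin2, so their promoters are shown first, 250 bases before to 50 after the annotated start, as RefSeq gives them on the rat build GRCr8. Capitals mark the core of the Tcf and Lef binding motif, searched as CTTTGA or CTTTGT on both strands. Both cores end in a different base, so 1 place can hold only 1 of them.
Tcf7l1, chr4:106403372-106403671, minus strand: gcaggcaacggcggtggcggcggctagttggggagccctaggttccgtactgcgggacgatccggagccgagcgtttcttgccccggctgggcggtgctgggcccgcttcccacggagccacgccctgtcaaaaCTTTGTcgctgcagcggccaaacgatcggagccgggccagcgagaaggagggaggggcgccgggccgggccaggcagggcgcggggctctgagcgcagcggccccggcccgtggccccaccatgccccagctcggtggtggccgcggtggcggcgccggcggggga
Tcf7l2, chr1:264791085-264791384, plus strand: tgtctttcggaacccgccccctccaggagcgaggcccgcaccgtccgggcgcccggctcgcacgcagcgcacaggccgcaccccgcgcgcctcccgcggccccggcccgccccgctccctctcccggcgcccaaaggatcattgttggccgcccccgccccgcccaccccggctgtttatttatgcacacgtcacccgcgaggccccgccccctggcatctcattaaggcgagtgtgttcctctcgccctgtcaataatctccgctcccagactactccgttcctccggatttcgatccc
Lef1, chr2:222340463-222340762, plus strand: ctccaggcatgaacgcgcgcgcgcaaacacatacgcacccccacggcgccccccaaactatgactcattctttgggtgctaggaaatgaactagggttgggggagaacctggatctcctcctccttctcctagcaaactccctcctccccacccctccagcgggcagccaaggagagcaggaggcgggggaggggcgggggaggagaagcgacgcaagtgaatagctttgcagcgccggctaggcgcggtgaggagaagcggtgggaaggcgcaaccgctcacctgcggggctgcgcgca
Axin2, chr10:94398535-94398834, plus strand: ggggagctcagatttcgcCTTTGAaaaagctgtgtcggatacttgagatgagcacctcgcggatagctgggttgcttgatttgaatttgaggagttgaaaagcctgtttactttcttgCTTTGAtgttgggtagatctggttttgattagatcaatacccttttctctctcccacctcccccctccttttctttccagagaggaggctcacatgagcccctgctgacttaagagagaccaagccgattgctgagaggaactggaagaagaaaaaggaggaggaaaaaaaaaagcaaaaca
The Tcf7l1 window holds 1 such core and the Axin2 window 2, while those of Tcf7l2 and Lef1 hold 0 in these letters. The Tcf7l1 and Axin2 windows lie inside the annotated spans of their genes, so each belongs to 1 of the starts of its gene. Promoters were given for 30 of the 41 genes, and 7 of these (23.3%) hold the core. Among all 33469 promoters of this length, 10498 (31.4%) hold it, so the share in the pathway genes was below that of promoters in general. Such a match is a description of the letters and does not show binding.

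The level of a gene is its RMA intensity, a normalized probe brightness on a linear scale that cannot be set against another gene's. Array medians ran from 24.2 to 28.9. An intensity of 16.3, the 40th percentile of all values, served as a mark for dim signal, because detection calls were not used here. Where a group lay below it, a log2 difference is that of the measured intensities and not an exact size of the change. Of the 41 genes, 28 (68.3%) had at least 1 group mean above it, against 9762 of all genes (76.6%). All 8 cytoplasmic genes and all 3 nuclear factors passed the mark, as did 6 of 9 receptors, 6 of 12 ligands and 5 of 8 secreted inhibitors. Dim in every group were Wnt2, Wnt2b, Wnt6, Wnt8b, Wnt11, Wnt16, Fzd4, Fzd5, Fzd6, Dkk2, Sfrp5, Wif1 and Rspo3, whose highest group means ran from 9.70 for Dkk2 to 16.2 for Fzd5. Tcf7 had no probe set of its own and was not analysed here. Ctnnb1 was bright in all groups, with group means between 1791 and 2553.

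**Figure D1:**
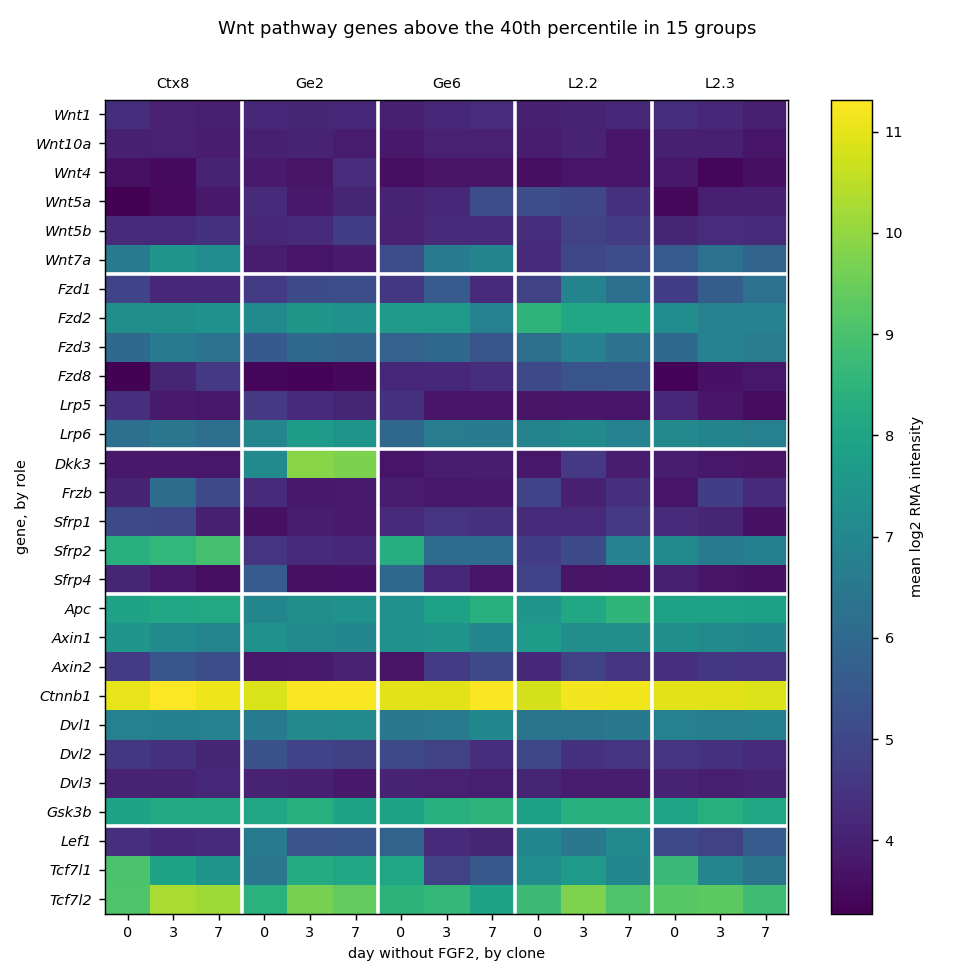
Mean log2 RMA intensity of the 28 genes that passed an intensity of 16.3, with genes in rows ordered by role (white lines separate ligands, receptors, secreted inhibitors, cytoplasmic genes and nuclear factors) and the 15 groups of clone and day in columns. Colour compares a gene with itself along its row; Dkk3 is bright only in Ge2 among these groups, and Ctnnb1 is bright in all of them.

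What the cultures contained also differed by clone and day. Summed intensities of 7 neuronal markers (Tubb3, Dcx, Stmn2, Mapt, Map2, Snap25 and Syt1) ran on single arrays from 8852 to 9137 in Ge6 at day 7, but from 1310 to 1408 in Ge2. Such a sum is set mostly by its brightest genes. In Ge2 at day 7 the mean of Map2 was 1274, and those of the other neuronal markers lay between 10.2 and 22.4. Those of 6 astrocyte markers reached 16389 to 17248 in Ctx8 and 12777 to 18831 in L2.3 at day 7, against 1668 to 1807 in Ge6. For 5 markers of the oligodendrocyte lineage the day 7 sums were 11922 to 12534 in Ctx8, 3820 to 4449 in L2.3, 1241 to 2035 in L2.2, 813 to 870 in Ge6 and 286 to 305 in Ge2. Sums of 5 markers of dividing cells fell below every day 0 array of the same clone by day 7, from at least 7107 to at most 5982. In Ge2 Pcna, with a mean of 1357 at day 7, made up most of that sum, while Mki67 fell from 522 to 15.6. Markers of mesenchymal cells, microglia, endothelium and neural crest summed to at most 138, 77.6, 90.6 and 45.8 on any array, over 5, 5, 4 and 3 measured genes. In L2.2 at day 7 the mesenchymal sums were 132 to 138 and the endothelial sums 67.2 to 90.6, against 73.6 to 77.3 and 45.0 to 45.4 at day 0. In such bulk cultures, fewer cells of a type and less RNA per cell cannot be told apart, and the part of cell make-up in the results below was not tested.

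Withdrawal of FGF2 was followed by changes in both directions in every clone rather than by one shift of the pathway. A gene was called changed at an adjusted p under 0.05 from limma, a linear model fitted to all 12749 genes. At day 7, 13 of the 41 genes were higher and 7 lower than at day 0 in Ge2, where 27.0% of all genes were called higher and 33.3% lower. In Ctx8, 10 were higher and 8 lower (24.9% and 30.9% of all genes). In L2.2, 10 were higher and 8 lower (21.4% and 30.3%). In Ge6, 9 were higher and 11 lower (24.0% and 35.0%), and in L2.3, 6 were higher and 11 lower (21.9% and 26.9%). The shares called higher were near those of all genes in all 5 clones but L2.3, where 14.6% of the 41 genes were called higher. The shares called lower were below those of all genes in Ge2 (17.1%), Ctx8 (19.5%), L2.2 (19.5%) and Ge6 (26.8%), and that of L2.3 (26.8%) was close to it. None of these shares was tested against all genes. The median log2 change to day 7 over the 41 genes was -0.05 in Ctx8, -0.01 in Ge2, 0.05 in Ge6, 0.05 in L2.2 and -0.05 in L2.3. Over all genes these medians lay between -0.07 and -0.05. When every array was shifted to the same median, the median change of all genes to day 7 moved to between -0.22 and -0.15. The split of higher and lower calls then became 7 and 17 in Ctx8, 10 and 17 in Ge2, and 8 and 16 in Ge6. It became 7 and 11 in L2.2 and 6 and 15 in L2.3. Lower calls then outnumbered higher ones in all 5 clones, so the balance of directions rests on the scaling.

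At day 3, 14 genes were higher and 6 lower in L2.2 (19.7% and 27.7% of all genes). In Ge2, 10 were higher and 8 lower (27.5% and 32.4%), and in Ctx8, 8 and 7 (23.9% and 29.7%). Ge6 had 7 higher and 5 lower (20.4% and 28.6%), and L2.3 had 6 and 6 (20.0% and 26.2%). Called at both days in the same direction were 16 genes in Ge2, 13 in L2.2, 10 in Ctx8, 10 in Ge6 and 9 in L2.3. How many of all genes were called at both days was not counted, so no share stands beside these counts. Shifted to one median, the day 3 splits were 11 and 11 in L2.2, 9 and 15 in Ge2, 6 and 13 in Ctx8, 6 and 5 in Ge6, and 5 and 10 in L2.3. Between days 3 and 7, Ge6 had the most calls, 7 higher and 7 lower, where 18.4% and 26.0% of all genes were called. L2.2 had 4 higher and 8 lower (8.82% and 8.89%), L2.3 had 2 and 4 (9.58% and 5.87%), Ctx8 had 2 and 3 (11.9% and 10.5%), and Ge2 had 2 and 1 (9.02% and 7.68%). In Ctx8 that last split was 2 and 7 after the shift to one median, and in Ge2 it was 2 and 2 after quantile normalization. An F test over the 5 clones called 20 of the 41 genes different between clones at day 0 and 28 at day 7, where 65.6% and 74.4% of all genes were called. The change from day 0 differed between clones for 23 genes at day 3 and for 25 at day 7 (68.2% and 71.5% of all genes).

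**Figure D2:**
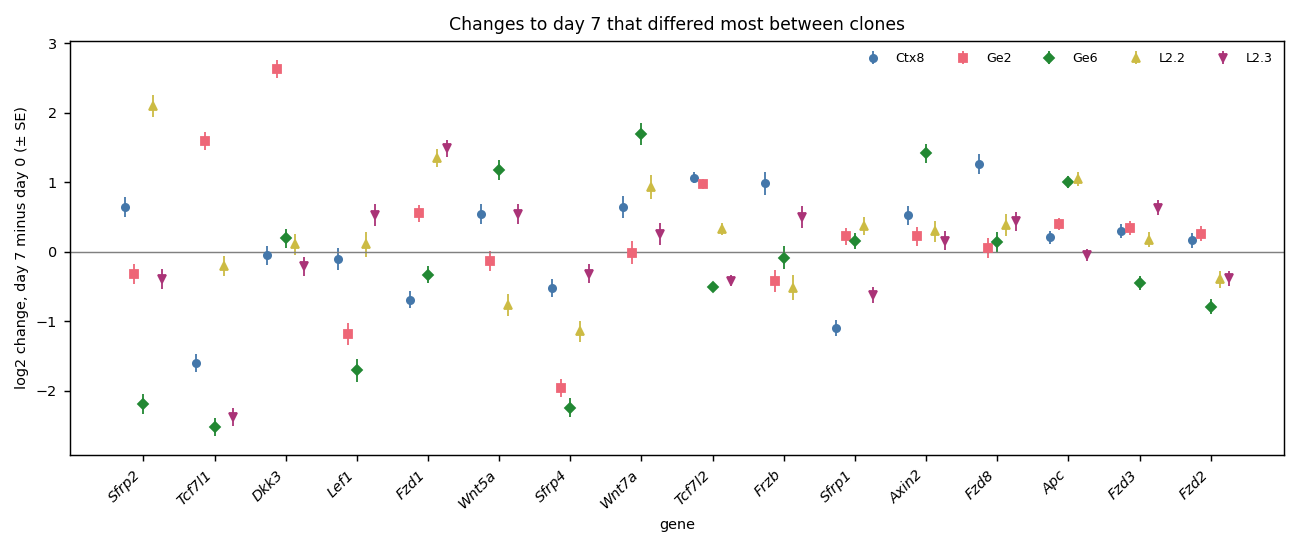
Log2 change from day 0 to day 7 (points) with its standard error (bars) in each of the 5 clones, for the 16 genes with the widest spread of the change among those whose change differed between clones. Sfrp2, Tcf7l1 and Lef1 have points well above and well below 0, whereas Sfrp4 lies below 0 in every clone.

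Among the ligands, Wnt7a, known in the brain for vessel growth and synapse formation, was the brightest in range and rose in 4 clones. In Ge6 its intensities were 33.0, 40.6 and 37.9 at day 0, 98.5, 107 and 91.9 at day 3, and 106, 137 and 120 at day 7. No array of the later days overlapped with day 0, and the change to day 7 was 3.24-fold (log2 1.70, SE 0.16, limma adjusted p = 9.81e-12). In Ctx8, where Wnt7a was 107, 87.6 and 88.1 at day 0, it rose to 188, 178 and 164 at day 3 (log2 0.91, SE 0.16) and stood at 172, 134 and 137 at day 7. L2.2 started lower, at 21.0 and 17.1, and reached 44.1, 34.8 and 30.7 at day 7 (log2 0.93, SE 0.18). L2.3 rose from 49.3, 43.6 and 52.5 to 86.1, 76.4 and 74.2 at day 3 (log2 0.70, SE 0.16), and at day 7 it was 49.4, 56.8 and 69.2, where the change of 0.26 did not pass. Ge2 stayed near the dim mark throughout, between 11.1 and 17.6. The change to day 7 differed between the clones (F test, adjusted p = 2.08e-07). A second Wnt7a probe set of similar brightness gave smaller changes to day 7, with log2 0.46 in Ge6 (adjusted p = 0.005), and ended the day 3 calls in Ctx8 (0.30) and L2.2 (0.27).

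Wnt5a, a ligand known mainly for signalling without beta-catenin, moved in opposite directions in the neuronal clones. In Ge6 its intensities were 16.7, 16.5 and 16.5 at day 0 and 46.3, 40.5 and 27.8 at day 7, a rise of 2.26-fold (log2 1.17, SE 0.14, limma adjusted p = 5.26e-09) that came after day 3, when the arrays read 18.3, 20.6 and 16.6. In L2.2 it fell from 36.2 and 36.8 to 24.7, 19.7 and 20.6 at day 7 (log2 -0.76, SE 0.16, limma adjusted p = 0.00012). The changes differed between clones (F test, adjusted p = 5.78e-09). In Ctx8 and L2.3 the gene rose by log2 0.54 in both, from levels between 9.38 and 11.4, below the dim mark. Wnt4 and Wnt5b, both close to that mark, rose in Ge2 by day 7. Wnt4 there read 15.1, 13.5 and 15.1 at day 0 and 15.9, 21.8 and 22.2 at day 7, and Wnt5b read 19.2, 16.1 and 19.8 and then 28.3, 27.2 and 25.7. Wnt4 was also called higher in Ctx8 at day 7 (0.41), with overlapping arrays and no call after the shift to one median (0.24). Wnt5b was also called higher in L2.2 at day 3 (0.54), with overlapping arrays and a call lost without replicate 3 of day 0 (0.27) or replicate 1 of day 3 (0.40). Wnt1 and Wnt10a stayed between 11.9 and 23.5 on all arrays.

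Fzd1 was the receptor with the widest range, and its change to day 7 differed between clones (F test, adjusted p = 2.02e-14). In L2.2 it rose from 25.9 and 33.1 to 128, 105 and 130 at day 3 and stood at 72.9, 72.9 and 78.0 at day 7 (log2 2.04 and 1.35, SE 0.13). In L2.3 it climbed from 27.9, 28.8 and 25.7 to 46.9, 57.5 and 47.7 and then to 75.1, 72.9 and 83.7 (log2 1.49 at day 7, SE 0.12). Ge2 rose from 23.8, 26.3 and 25.8 through 30.4, 35.7 and 37.2 to 35.4, 36.3 and 39.8 (log2 0.55, SE 0.12). Both neuronal clones shared a peak at day 3: in Ge6 Fzd1 went from 20.3, 25.3 and 26.6 to 50.7, 47.3 and 47.0 and back to 19.4, 19.1 and 18.6. The fall from day 3 to day 7 in Ge6 was log2 -1.34 (SE 0.12, limma adjusted p = 1.17e-11). Against day 0 the Ge6 change of -0.33 lost its call without replicate 2 (-0.29) or replicate 3 (-0.25) of day 0. Ctx8 was the clone in which Fzd1 fell early and stayed low, from 24.2, 28.2 and 38.3 to 17.3, 19.9 and 17.4 at day 3 and 20.5, 17.4 and 17.5 at day 7 (log2 -0.69, SE 0.12).

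The other receptors moved less. Fzd2 was highest in L2.2, with 355 and 371 at day 0 and 267, 271 and 292 at day 7 (log2 -0.39, SE 0.12), a fall whose call was lost without replicate 3 of day 0 (-0.36). In Ge6, Fzd2 held its level to day 3 (207, 197 and 180) and dropped to 114, 115 and 110 at day 7 (log2 -0.79 against day 0, SE 0.11, limma adjusted p = 4.28e-08). Fzd3, a receptor known for guiding axons, was 69.0, 65.1 and 59.9 in L2.3 at day 0 and 126, 105 and 118 at day 3 (log2 0.84, SE 0.10). It rose at day 3 in Ctx8 (0.56), Ge2 (0.40) and L2.2 (0.68) too, whereas in Ge6 it fell by day 7, from 60.9, 59.5 and 49.3 to 40.5, 43.0 and 40.7 (log2 -0.44, SE 0.10). Fzd8 was below the dim mark in Ctx8 at day 0 (10.7, 9.60 and 10.1) and reached 26.3, 22.6 and 24.0 at day 7 (log2 1.26, SE 0.14). The highest Fzd8 levels were those of L2.2, between 31.8 and 53.5 on all its arrays.

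The co-receptors Lrp5 and Lrp6 moved in opposite directions in Ge2 and Ge6. Lrp6 rose in Ge2 from 125, 124 and 117 to 193, 219 and 206 at day 3 (log2 0.75, SE 0.09) and in Ge6 from 58.0, 71.4 and 62.4 to 104, 96.5 and 98.8 (log2 0.65, SE 0.09). At day 7 the changes were 0.50 and 0.61, both called. In L2.3 Lrp6 was lower at day 7 (-0.28), a call lost without replicate 2 of day 0 (-0.24) and on a second probe set (-0.21). Lrp5, close to the dim mark in all clones, fell by day 7 in Ctx8 (-0.59), Ge2 (-0.50), Ge6 (-0.69) and L2.3 (-0.62), each with SE 0.12. In Ge6 its arrays went from 21.8, 24.3 and 19.6 to 13.2, 14.0 and 13.3, without overlap. The Ge2 fall was not called on a second Lrp5 probe set (-0.13).

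**Figure D3:**
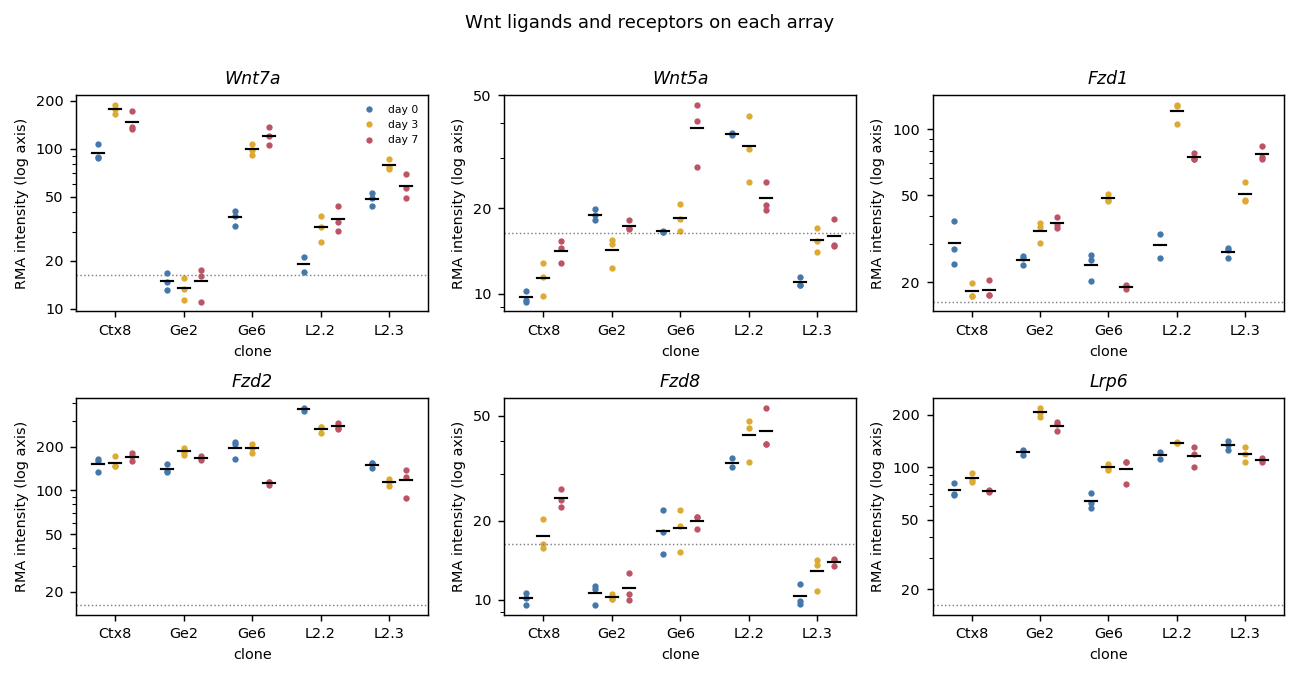
RMA intensity (log axis) of 2 ligands, 3 frizzled receptors and the co-receptor Lrp6 on every array, grouped by clone and coloured by day, with bars at the group means and a dotted line at 16.3. Wnt7a rises without overlap in Ge6, and Fzd1 peaks at day 3 in Ge6 and L2.2 while it falls in Ctx8.

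The secreted inhibitors changed in different clones and directions. Dkk3, a divergent member of the Dickkopf family, was bright in Ge2 only among the 5 clones. Its Ge2 intensities were 123, 132 and 156 at day 0, 998, 940 and 931 at day 3, and 899, 832 and 799 at day 7. All later arrays stood above all day 0 arrays, by 7.02-fold at day 3 and 6.19-fold at day 7 (log2 2.81 and 2.63, SE 0.13, limma adjusted p = 7.46e-20 and 4.92e-19). In Ctx8, Ge6 and L2.3 every array lay between 10.9 and 16.6. L2.2 read 33.2, 21.8 and 20.3 at day 3, above its 13.6 and 14.0 at day 0 (log2 0.83, SE 0.15), and returned to 15.5, 15.3 and 13.9 at day 7. Clones differed in this change at day 7 (F test, adjusted p = 1.28e-15). A second Dkk3 probe set with a mean intensity of 9.37, far below the dim mark, showed no such rise (-0.04 and -0.12 in Ge2). Beside this rise, Ge2 had the lowest day 7 sums of neuronal and oligodendrocyte lineage markers, given above. The astrocyte sums of Ge2 were 543 to 570 at day 0, 3506 to 3890 at day 3 and 7368 to 8424 at day 7. Astrocyte sums at day 7 were above those of day 0 in the other clones too, where Dkk3 was not bright. Ge2 also differed in other markers. Its mesenchymal sums were 71.9 to 126 at day 7 against 57.3 to 62.8 at day 0, with Col3a1, Dcn and Lum dim in all Ge2 groups. In L2.2 the mesenchymal sums at day 7 were 132 to 138. The part of cell make-up in the Dkk3 rise was not tested.

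Sfrp2, which binds Wnt ligands and is expressed in embryonic neural precursors, changed in opposite directions in the 2 clones labelled as neuronal precursors. In Ge6 it fell from 299, 320 and 318 at day 0 to 67.3, 68.1 and 69.9 at day 3 and stayed at 67.9, 70.9 and 67.2 at day 7. That is 4.55-fold lower at day 7 (log2 -2.19, SE 0.14, limma adjusted p = 7.55e-16). In L2.2 it went the other way and later, from 27.3 and 26.6 through 35.0, 31.8 and 39.0 to 131, 117 and 99.7, 4.28-fold higher at day 7 (log2 2.10, SE 0.16, limma adjusted p = 1.29e-13). Most of this rise fell between days 3 and 7 (log2 1.72, SE 0.14). Ctx8 was the clone with the highest level, 284, 332 and 346 at day 0 and 443, 538 and 516 at day 7 (log2 0.64, SE 0.14). L2.3 fell from 122, 151 and 146 to 106, 94.4 and 90.9 at day 3 (log2 -0.52, SE 0.14), and Ge2 stayed between 15.04 and 27.9. A second Sfrp2 probe set gave a day 7 change of -2.14 in Ge6 and 1.04 in L2.2, both called. Between the clones the change to day 7 differed (F test, adjusted p = 1.11e-17).

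Sfrp4 fell to the dim mark in every clone where it had been above it. In Ge6 its day 0 arrays read 69.9, 53.7 and 64.7 and its day 7 arrays 12.3, 15.2 and 12.3 (log2 -2.24, SE 0.13, limma adjusted p = 4.37e-17). In Ge2 it went from 54.7, 53.9 and 40.7 to 14.6, 12.1 and 11.7 (log2 -1.96, SE 0.13), and in L2.2 from 34.1 and 25.6 to 14.97, 11.6 and 13.8 (log2 -1.14, SE 0.15). Both multipotential clones began at 14.4 to 17.5. A second Sfrp4 probe set, with a mean intensity of 10.6, showed none of these falls.

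Frzb, another Wnt-binding protein, peaked at day 3 in the 2 multipotential clones and was still called higher at day 7. In Ctx8 it went from 18.5, 16.1 and 16.3 to 85.6, 73.0 and 53.9 at day 3 and then 30.8, 31.1 and 39.0 at day 7 (log2 0.98 against day 0, SE 0.16). The rise was 4.11-fold at day 3 (log2 2.04, SE 0.16, limma adjusted p = 1.70e-13) and the later fall log2 -1.06 (SE 0.16). In L2.3 it went from 14.5, 13.0 and 12.8 to 27.8, 26.1 and 26.1 (log2 0.99, SE 0.16), then to 18.8, 20.4 and 17.7 (log2 0.50 against day 0), where a second probe set gave 0.41, not called. The L2.3 fall after day 3 lost its call without replicate 1, 2 or 3 of day 3 or replicate 1 or 3 of day 7. On the second probe set that fall was not called either. In L2.2 the 2 day 0 arrays disagreed, 41.8 and 21.6, and the fall of -0.91 to day 3 was -0.44 and not called without replicate 1 of day 0, and -1.39 without replicate 3. Sfrp1 was 31.0, 37.7 and 33.3 in Ctx8 at day 0, held 36.2, 33.8 and 27.9 at day 3 and dropped to 15.5, 15.6 and 16.8 at day 7 (log2 -1.09, SE 0.12, limma adjusted p = 2.53e-10). In L2.3 it fell from 20.2, 19.9 and 17.9 to 12.7, 12.3 and 12.8 (log2 -0.62, SE 0.12), a fall not called on a second probe set (-0.19). In Ctx8 the fall of Sfrp1 and the rise of Sfrp2 thus ran side by side.

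**Figure D4:**
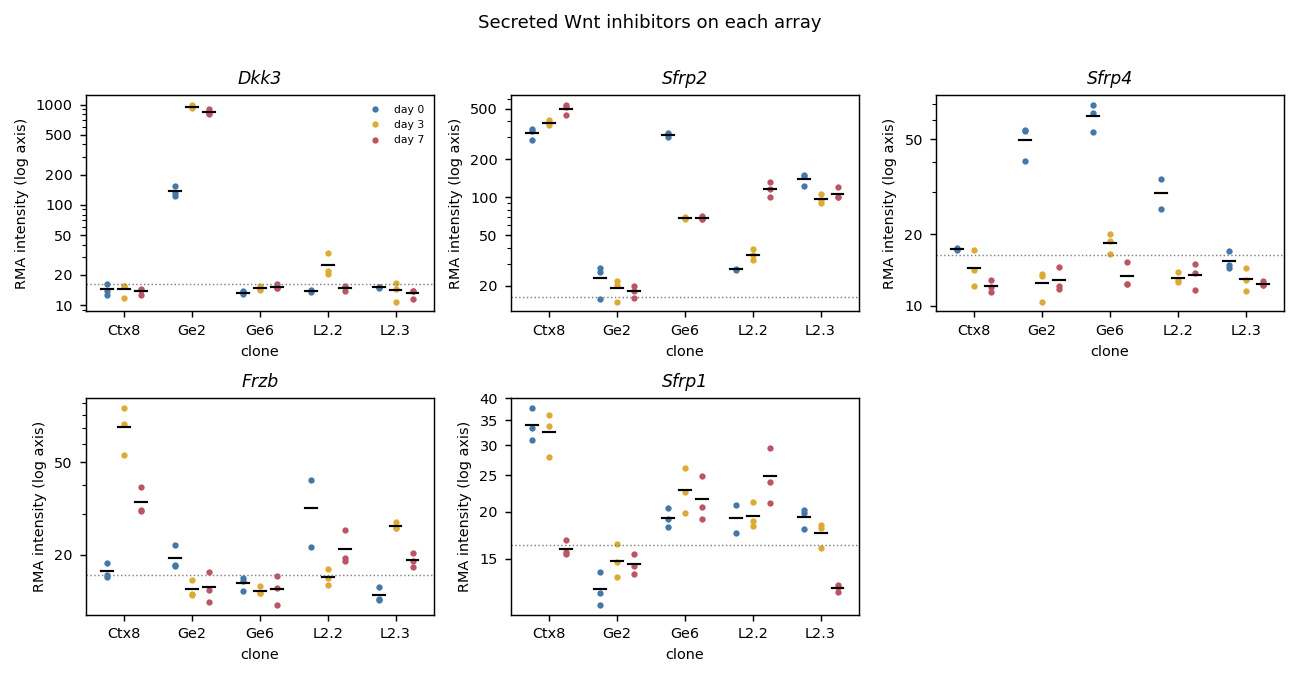
RMA intensity (log axis) of 5 secreted inhibitors on every array, grouped by clone and coloured by day, with bars at the group means and a dotted line at 16.3. Dkk3 stands out in Ge2, Sfrp2 falls in Ge6 and rises in L2.2, and Frzb peaks at day 3 in Ctx8.

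Among the cytoplasmic genes, the probe sets of Ctnnb1 disagreed. By day 7 its brightest was called higher in Ge2 (log2 0.42), Ge6 (0.30) and L2.2 (0.35). A second bright one, with a mean intensity of 508, fell in Ge6 (log2 -0.25, adjusted p = 0.00132) and L2.3 (-0.31), rose in L2.2 (0.47) and was not called in Ge2 (0.15). Another one, with a mean intensity of 8.99, gave -0.0526 in Ge2 and -0.0705 in L2.2, neither called. No direction is therefore given for Ctnnb1 in Ge2 and Ge6. Apc, the scaffold of the destruction complex, was called higher at day 7 in 4 clones. In Ge6 it went from 177, 144 and 160 at day 0 through 227, 266 and 219 to 337, 294 and 330 at day 7 (log2 1.00, SE 0.09, limma adjusted p = 2.40e-12). In L2.2 it went from 183 and 173 through 282, 303 and 242 to 408, 345 and 359 (log2 1.05, SE 0.10, limma adjusted p = 2.56e-11). Ge2 went from 127, 135 and 115 to 162, 161 and 170 (log2 0.40, SE 0.09). The Ctx8 change of 0.21 lost its call without any 1 of the 6 arrays of these days, and after the shift to one median (0.04). L2.3 stayed between 219 and 261, and the change to day 7 differed between clones (F test, adjusted p = 7.72e-10). Gsk3b rose by day 7 in the same neuronal pair, by log2 0.61 in Ge6 and 0.53 in L2.2 (SE 0.13 and 0.15). Axin1, the other scaffold, fell by day 7 in all 5 clones, by log2 -0.53 in Ctx8, -0.38 in Ge2, -0.30 in Ge6, -0.44 in L2.2 and -0.33 in L2.3, and this fall was not called different between clones. The change of Axin1 to day 3 did differ between them (F test, adjusted p = 3.65e-05). It was called lower in 4 clones then, while Ge6 had 0.15, not called. The L2.3 call at day 3 was lost without some single arrays. Dvl1 rose in Ge2 (0.54) and Ge6 (0.53) at day 7, while Dvl2 fell in Ge6 from 31.4, 35.5 and 33.1 to 18.0, 19.8 and 22.5 (log2 -0.73, SE 0.16). Dvl2 was called lower at day 7 in 4 clones, and the calls in Ctx8, Ge2 and L2.2 were each lost without some single arrays. Its change to day 7 was not called different between clones (F test, adjusted p = 0.348).

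Axin2, the feedback target, rose in Ge6 from below the dim mark. Its Ge6 intensities were 12.6, 14.6 and 12.1 at day 0, 30.4, 20.5 and 27.2 at day 3, and 39.4, 36.5 and 29.3 at day 7 (fitted log2 1.42 from day 0 values below the mark, SE 0.14, limma adjusted p = 3.57e-11). In Ctx8 it was 30.3, 22.7 and 25.0 at day 0 and 33.3, 48.1 and 46.5 at day 3 (log2 0.70, SE 0.14), then 38.7, 41.8 and 31.6 at day 7 (log2 0.52, SE 0.14). L2.2 rose at day 3 (0.66), a call lost without replicate 1 of day 0 (0.44). In L2.3, where the arrays ran from 20.2 to 24.4, and in Ge2, from 13.2 to 17.1, neither later day passed. Clones also differed in the change of Axin2 to day 7 (F test, adjusted p = 2.24e-06).

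The nuclear factors moved in different directions in different clones. Tcf7l1 fell in 3 clones and rose in Ge2. In Ctx8 its intensities were 524, 546 and 494 at day 0, 244, 250 and 243 at day 3, and 164, 170 and 183 at day 7 (log2 -1.60, SE 0.13, limma adjusted p = 5.23e-13). L2.3, the other multipotential clone, went from 442, 422 and 410 to 112, 134 and 125 and then to 77.3, 83.8 and 85.4 (log2 -2.37, SE 0.13, limma adjusted p = 2.27e-17). Ge6 showed the deepest fall, from 285, 245 and 260 to 29.7, 26.8 and 30.5 at day 3, which is 9.08-fold lower (log2 -3.18, SE 0.13, limma adjusted p = 4.32e-21). It then rose in part to 34.4, 41.3 and 68.0 at day 7 (log2 0.67 against day 3), or by 0.38 without replicate 3 of day 7. Ge2 moved the other way, from 75.3, 83.5 and 102 to 309, 290 and 299 at day 3 and 271, 268 and 244 at day 7 (log2 1.79 and 1.60, SE 0.13). L2.2 ended near its start, with 143 and 152 at day 0, 211, 191 and 188 at day 3, and 127, 115 and 144 at day 7. The rise of 0.41 at day 3 in L2.2 lost its call without either day 0 array (0.37 and 0.46) or replicate 1 of day 3 (0.36). A second Tcf7l1 probe set gave changes from day 0 to day 7 of -1.75 in Ctx8, 0.83 in Ge2, -2.63 in Ge6 and -2.72 in L2.3, all called. On it the Ge6 rise from day 3 to day 7 was 0.30 and not called. The change to day 7 differed between clones (F test, adjusted p = 1.99e-20).

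Tcf7l2, known for its role in oligodendrocyte maturation as well as in neurons, was called higher at day 3 in Ctx8, Ge2, L2.2 and Ge6. In Ctx8 it went from 534, 534 and 573 to 1343, 1225 and 1212 and remained at 1170, 1138 and 1130 (log2 1.20 and 1.07, SE 0.08, limma adjusted p = 6.01e-16 and 1.35e-14). In Ge2 it went from 351, 323 and 338 to 826, 790 and 828 and then 650, 673 and 662 (log2 1.27 and 0.97, SE 0.08). In L2.2 it peaked at day 3, from 459 and 418 to 882, 876 and 843 and back to 514, 610 and 535, the fall after day 3 being log2 -0.65 (SE 0.08). In Ge6 the day 3 arrays read 421, 376 and 404 (log2 0.18, SE 0.08, limma adjusted p = 0.0449), a call lost without replicate 2 (0.20) or 3 (0.13) of day 0 or replicate 1 (0.15) or 3 (0.18) of day 3, and after the shift to one median. Both Ge6 and L2.3 ended lower than they began: Ge6 went from 375, 358 and 324 to 248, 289 and 213 (log2 -0.51, SE 0.08) and L2.3 from 636, 591 and 566 to 441, 452 and 452 (log2 -0.41, SE 0.08). The 3 other Tcf7l2 probe sets were dimmer, with means from 16.3 to 40.8, and each was called higher in Ctx8 at day 7, while in Ge2 only 1 of them was. The change to day 7 differed between clones (F test, adjusted p = 9.23e-17). Beside these values, the oligodendrocyte lineage sums at day 7 were highest in Ctx8 and lowest in Ge2, the 2 clones with the largest Tcf7l2 rise. The part of cell make-up in the Tcf7l2 changes was not tested.

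Lef1 fell in Ge2 and Ge6 but not in L2.2 by day 7. In Ge2 its arrays read 99.8, 99.1 and 97.3 at day 0, 34.8, 38.8 and 47.6 at day 3, and 34.6, 52.6 and 45.1 at day 7 (log2 -1.18, SE 0.16, limma adjusted p = 4.49e-08). In Ge6 they read 52.3, 57.8 and 60.7 and then 20.0, 22.0 and 15.001, close to the dim mark, and 18.9, 15.4 and 18.2 (log2 -1.71, SE 0.16, limma adjusted p = 1.09e-11). L2.2 had 126 and 127 at day 0, 80.7, 97.7 and 95.2 at day 3, and 122, 141 and 147 at day 7, so that its day 7 level overlapped with day 0. Its dip at day 3 (-0.48) lost the call without either day 0 array (-0.49 and -0.47) or replicate 1 of day 3 (-0.39), and on a second Lef1 probe set. The rise from day 3 to day 7 was log2 0.58 (SE 0.16), a call lost without replicate 1 of day 3 (0.50). In L2.3 the rise of 0.53 to day 7, with arrays of 50.5, 39.4 and 60.9 against 41.7, 35.5 and 27.2, overlapped. It lost its call without replicate 3 of either day (0.36 and 0.38) and on the second probe set, which also ended the L2.3 call from day 3 to day 7. Ctx8 stayed between 15.4 and 21.6. For Lef1 the change to day 7 differed between clones (F test, adjusted p = 9.59e-11). In Ge6 the falls of Tcf7l1 and Lef1 and the rise of Axin2 were all present by day 3.

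**Figure D5:**
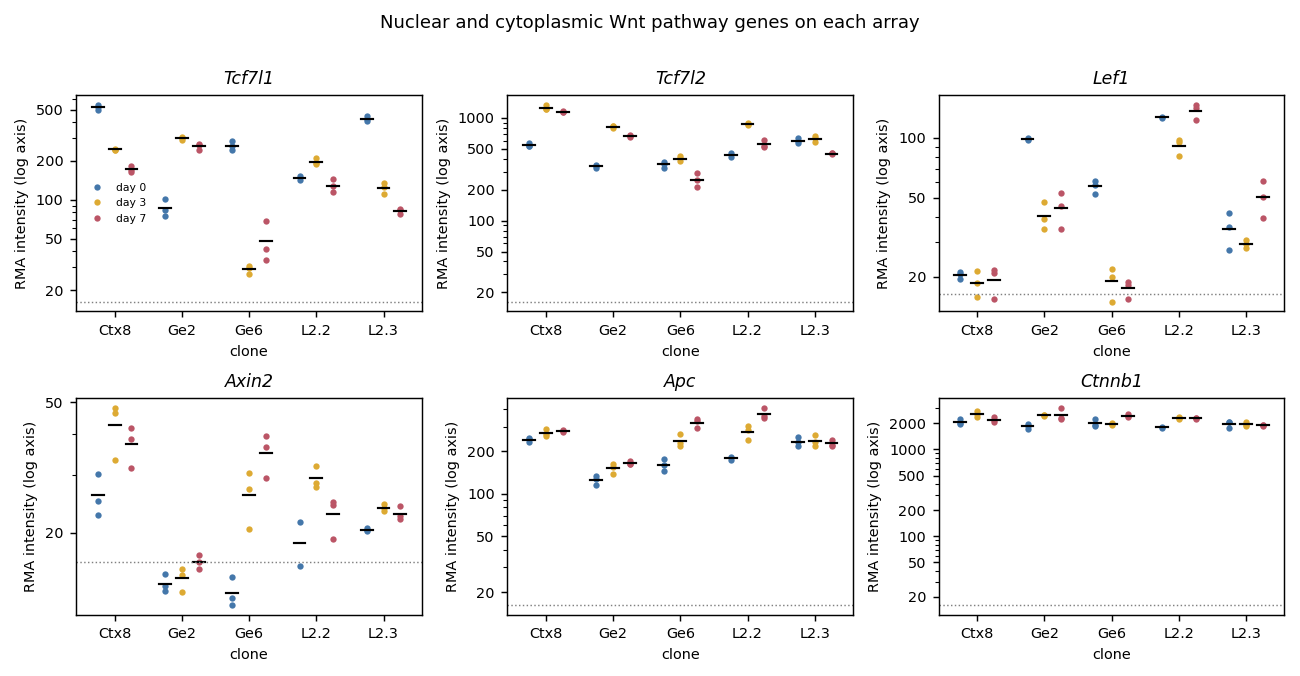
RMA intensity (log axis) of the 3 nuclear factors and of Axin2, Apc and Ctnnb1 on every array, grouped by clone and coloured by day, with bars at the group means and a dotted line at 16.3. Tcf7l1 falls in Ctx8, Ge6 and L2.3 and rises in Ge2, and Lef1 at day 7 overlaps its day 0 level in L2.2 but not in Ge6.

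Pairs of clones with like labels were compared directly. The multipotential clones Ctx8 and L2.3 were much alike in FGF2 and differed more at day 7. At day 0, 3 of the 41 genes were higher and 2 lower in Ctx8 than in L2.3, where 6.44% and 6.34% of all genes were called. Higher in Ctx8 were Sfrp2 (log2 1.20, SE 0.14), Wnt7a (0.96, SE 0.16) and Sfrp1 (0.81, SE 0.12), and lower were Lrp6 (-0.86, SE 0.09) and Lef1 (-0.75, SE 0.16). At day 7, 12 were higher and 4 lower (22.6% and 24.7% of all genes). Sfrp2 then led with log2 2.22 (SE 0.14), followed by Tcf7l2 (1.35, SE 0.08), Wnt7a (1.34, SE 0.16) and Tcf7l1 (1.07, SE 0.13). Lower in Ctx8 were Fzd1 (-2.07, SE 0.12), Lef1 (-1.38, SE 0.16), Lrp6 (-0.59, SE 0.09) and Fzd3 (-0.32, SE 0.10). The arrays of both clones did not overlap for any of these genes.

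Ge6 and L2.2, the clones labelled as neuronal precursors, differed at day 7 in 18 genes, 6 higher and 12 lower in Ge6 (18.4% and 26.5% of all genes). Lef1 was 7.82-fold lower in Ge6 (log2 -2.97, SE 0.16), and Fzd1 (-1.97, SE 0.12), Tcf7l1 (-1.48, SE 0.13), Fzd2 (-1.29, SE 0.11), Tcf7l2 (-1.15, SE 0.08) and Fzd8 (-1.12, SE 0.14) were lower as well. Higher in Ge6 were Wnt7a, 3.32-fold (log2 1.73, SE 0.16), Wnt5a (0.79, SE 0.14), Axin2 (0.62, SE 0.14) and Dvl1 (0.50, SE 0.09). All 3 nuclear factors were thus lower in Ge6. Wnt5b was lower in Ge6 too (-0.43, SE 0.16), a call lost without replicate 3 of Ge6 or replicate 2 of L2.2. Of the genes named here none had overlapping arrays between the clones. At day 7 the astrocyte sums were 4542 to 6549 in L2.2, above those of Ge6 given earlier, and the neuronal sums were 5730 to 6707, below those of Ge6.

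Other pathway genes were described by 2 lists. The first held 15 genes often reported as Wnt targets, of which 9 were measured, Axin2 and Lef1 among them. By day 7, 4 of these 9 were higher and 2 lower in Ctx8, 0 and 5 in Ge2, 2 and 3 in Ge6, 2 and 1 in L2.2, and 1 and 3 in L2.3. As shares of the 9 these were 44.4% and 22.2% in Ctx8, 0.0% and 55.6% in Ge2, 22.2% and 33.3% in Ge6, 22.2% and 11.1% in L2.2, and 11.1% and 33.3% in L2.3, beside the shares of all genes given earlier, from 21.4% to 27.0% higher and from 26.9% to 35.0% lower. Ccnd1, which encodes cyclin D1 of the cell cycle, fell in all 5 clones, from a group mean of 370 ± 26.9 (SD, n = 3) to 16.9 ± 2.85 (SD, n = 3) in Ge6 and from 1622 ± 41.2 (SD, n = 3) to 68.8 ± 10.02 (SD, n = 3) in L2.3. Myc, a growth regulator, went from 22.3 ± 1.13 (SD, n = 3) to 150.1 ± 18.1 (SD, n = 3) in Ge6 (log2 2.74) and fell from 170.4 ± 7.53 (SD, n = 3) to 69.3 ± 10.04 (SD, n = 3) in L2.3 (log2 -1.31). In Ge6, then, Myc and Axin2 rose while Ccnd1 and Lef1 fell, so the targets did not move one way. The sums of dividing-cell markers, given earlier, fell by day 7 in the same clones as Ccnd1. At day 3 in Ge6, Ccnd1 already had a mean of 22.6. The dividing-cell sums there were then 6819 to 6963, against 7107 to 7649 at day 0.

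The second list held 49 genes of Wnt secretion, reception, planar polarity and the cytoplasmic and nuclear machinery, of which 37 were measured. By day 7, 16 were higher and 11 lower in Ctx8, 17 and 12 in Ge2, 17 and 14 in Ge6, 19 and 11 in L2.2, and 15 and 9 in L2.3. Between 40.5% (L2.3) and 51.4% (L2.2) of the 37 were thus called higher and between 24.3% (L2.3) and 37.8% (Ge6) lower, beside the same shares of all genes. None of these shares was tested. Their median log2 change was 0.11, 0.09, 0.13, 0.24 and 0.03 in that order, each above the median of all genes given earlier. Celsr3, a polarity cadherin that guides axons, rose from 25.7 ± 2.10 (SD, n = 3) to 309 ± 29.7 (SD, n = 3) in Ge6 (log2 3.59), from 33.1 ± 2.46 (SD, n = 3) to 401 ± 23.6 (SD, n = 3) in L2.3 (log2 3.60), and by log2 2.28 in L2.2. Celsr1 rose from 10.9 ± 1.73 (SD, n = 3) to 227 ± 27.0 (SD, n = 3) in Ctx8 and from 11.3 to 124 in L2.3, both from below the dim mark, so the fitted log2 differences of 4.38 and 3.45 are not exact sizes. It fell in L2.2 (log2 -0.78). Prickle2, another polarity gene, rose in Ge6 (3.24) and L2.2 (1.97). Its group means also went from 62.6 to 192 in Ctx8 and from 50.1 to 147 in L2.3, and from 130 to 139 in Ge2. Vangl1, also a polarity gene, fell in Ctx8 (-0.82), L2.2 (-1.27) and L2.3 (-1.26). Its group means also went down in Ge6, from 49.1 to 25.5, and in Ge2, from 120 to 91.5. In Ge6 the co-repressor Tle2, which binds Tcf factors, rose from 38.0 ± 6.36 (SD, n = 3) to 501 ± 59.7 (SD, n = 3) (log2 3.73) but fell in Ge2 (-1.04). In Ge2 the rises were led by Ndp (fitted log2 3.12, from 13.9, below the mark, to 121), whose product norrin activates the pathway through Fzd4, and by the glypicans Gpc3 (2.85) and Gpc4 (2.39). Fzd4 itself was dim in all groups, with a highest group mean of 14.3.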

How the data were processed

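RNA from 44 cultures was hybridised to Affymetrix arrays. The deposited table holds intensities per probe set, made by the authors with GCOS and RMA, per the submitters' processing notes, whose versions are not given in the sources used here. Values were linear, from 6.39 to 12734, and log2 was taken with no pseudocount. Because RMA brings arrays to a common scale, a shift in the total RNA of a cell is invisible here. No 2 arrays held the same values. Of 24183 probe sets, 17547 had 1 gene in the platform annotation, 213 several and 6423 none. Symbols were updated through gene IDs for 17450, and the probe set with the highest mean log2 stood for each of 12749 genes. The 41 pathway genes had 64 probe sets, and 19 of them had more than 1.

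One mean per group of clone and day was fitted in limma 3.58.1 (R 4.3.3, lmFit and eBayes) over all arrays, leaving 29 residual degrees of freedom. The median gene had a residual SD of 0.122 on the log2 scale. Tests were two-sided, the Benjamini-Hochberg adjustment ran over the 12749 genes within each comparison, and the threshold was 0.05. Differences between 2 clones, and F tests between all 5, came from the same fit. Folds are 2 to the power of a fitted log2 difference. The pipeline was tested on simulated data. Replicate numbers did not pair the cultures: over 43 pairs of arrays sharing a number within a clone, the correlation of deviations from group means ran from -0.0947 to 0.170 with a median of 0.0146. Neither scan dates nor batches were used here, and batch effects were not tested. The number of arrays limits the precision.

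The genes, the lists and the pairs of clones were chosen with earlier results of these data known. All 41 genes could be named. A gene was described in full where a group mean passed the 40th percentile and an F test called it, with most room for the widest ranges. From each further list, at most 3 called rises and 3 called falls per comparison were named. Alternatives were quantile normalization, shifting each array to a shared median, a filter against dim genes, averaging the probe sets of a gene, each probe set alone, a variance trend with robust estimation, array weights, separate fits per comparison, a block for the replicate number, and leaving out each array.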

Additional observations from a re-analysis of the deposited data

Results flagged for a closer look

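For 25 of the 41 genes the change from day 0 to day 7 differed between the 5 clones by an F test of that difference (71.5% of all genes were called in the same test), and the highest adjusted p among them was 0.048, that of Wnt10a, whose call was lost under 21 alternatives. The value given for each gene is the spread, the highest minus the lowest log2 change of the 5 clones. Sfrp2 had a spread of 4.285, falling in Ge6 and rising in L2.2, and Tcf7l1 one of 4.114, falling in Ge6 and rising in Ge2. The spread was 2.838 for Dkk3, 2.235 for Lef1, 2.178 for Fzd1, 1.934 for Wnt5a, 1.925 for Sfrp4, 1.706 for Wnt7a, 1.573 for Tcf7l2 and 1.501 for Frzb. It was 1.455 for Sfrp1, 1.253 for Axin2, 1.203 for Fzd8, 1.095 for Apc, 1.081 for Fzd3 and 1.05 for Fzd2. It was below 1 for the others, with 0.895 for Lrp6, 0.726 for Gsk3b, 0.716 for Lrp5, 0.665 for Wnt1, 0.659 for Wif1, 0.612 for Wnt4, 0.573 for Dvl1, 0.467 for Ctnnb1 and 0.46 for Wnt10a. Wif1 was dim in every group. Each clone is a single line, and the part of cell make-up in these differences was not tested.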

How the results depend on the processing

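Of 345 called results of the 41 genes, 239 kept their call under every alternative and 106 lost it under at least 1. Leaving out 1 array kept each count of calls within 1.5 times its value. The count between days 3 and 7 in Ctx8, 5, became 9 after shifting the arrays to a shared median, 10 with array weights and 8 in a fit to only the groups compared, and the cause was not tested. The replicate numbers did not pair the cultures, and with the replicate block 18 genes were called between Ge6 and L2.2 at day 7, as without it. Over all differences the block ended 3 calls and added 4.

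No difference changed sign with a change of call under either scaling. With the mean of the probe sets, Ge6 against L2.2 at day 7 became -0.235 for Ctnnb1 and 0.0388 for Lrp6. Other probe sets of the same gene gave changes of the other sign, and the cause was not tested. For Ctnnb1 these were -0.00964 (Ge2, day 3), -0.0526 (Ge2, day 7), -0.255 (Ge6, day 7), -0.153 (Ge6, day 7 against day 3) and -0.0705 (L2.2, day 7). For Dkk3 in Ge2 they were -0.0401 at day 3 and -0.123 at day 7. For Sfrp4 they were 0.0978 (Ge2, day 3), 0.0423 (L2.2, day 3) and 0.0178 (L2.3, day 7). The rest were -0.0202 and -0.0517 for Tcf7l2 (Ge6, day 3), 0.217 for Wnt11 (Ge6, day 7), -0.0740 for Sfrp1 (L2.2, day 7 against day 3) and -0.309 for Rspo3 (L2.3, day 7). Over 23 other probe sets, 176 of 230 results made the same call, 1 the opposite call, 42 lost and 11 gained one. Among the 10 of them with a mean above 16.3, 76 of 100 made the same call. Over all genes, the share of calls that were higher fell by over 10 percentage points when all arrays were shifted to one median, in 10 comparisons of days, for example from 44.6% to 28.2% in Ctx8 and from 40.7% to 28.3% in Ge6 at day 7. Signals near 16.3 limit what can be said of the 13 dim genes.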
